A study of Sus scrofa with 9 samples.

Results

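The transcription factors that direct blood cell and myeloid development, SPI1, IRF8, CEBPA, CEBPB, IKZF1, RUNX1, RUNX3 and BATF, were followed as 8 genes in the abdominal aorta of Tibetan minipigs fed a high-fat diet. They were chosen by gene name, each name had 1 row in the deposited table, and together they are 8 of the 21357 genes listed. The pigs were male, and poly(A) RNA from the terminal abdominal aorta was sequenced in 3 libraries per group. The NC group had 24 weeks on a normal diet, the H8 group 8 weeks on a high-fat diet and the H24 group 24 weeks on a high-fat diet. The study describes pigs aged 3 to 4 months at purchase, a diet with added cholesterol (HFC), and an NC and an atherosclerosis group from which 3 of 5 animals each were picked at random for sequencing. The H8 group stands in the sample labels only, which do not say whether its 3 libraries came from separate pigs, so that p-values with H8 measure the spread between these libraries. Its pigs also differed from NC and H24 in the weeks spent on a diet, so diet and time on study cannot be told apart in H8 against NC. In H24 against H8 both groups had the high-fat diet, and weeks on that diet and time on study cannot be told apart.

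Blood cells form from stem cells through the combined action of a few DNA-binding proteins, whose relative amounts steer a progenitor toward the myeloid or the lymphoid lineages. PU.1, the product of SPI1, and the C/EBP proteins open the enhancers of macrophage and granulocyte genes, and IRF8, IKZF1, the RUNX factors and BATF act beside them as partners or as lineage-restricted regulators. In an artery wall the resident cells are mostly smooth muscle and endothelial cells, and macrophages are the leukocytes best known from atherosclerotic plaques.

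The libraries held 44094263 to 75787978 counts. All 7 smooth muscle markers and all 7 endothelial markers were detected in every library, with a summed smooth muscle level of 11640 to 13570 FPKM in NC, although the extraction text of the sample labels speaks of adipose material. FPKM is the read count scaled to exon length and to the mapped reads of the library. The correlation of log2 CPM (counts scaled to library size) between libraries of 1 group was 0.986 to 0.988 in NC and 0.979 to 0.987 in H8. It fell to 0.943 and 0.958 for H24 replicate 3, which stood apart from the other libraries. That library had a summed smooth muscle level of 1710 FPKM, against 7955 and 11510 FPKM in H24 replicates 1 and 2, and results for H24 are therefore given with and without it.

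After 24 weeks of the high-fat diet, 7 of the 8 factors were up-regulated against NC and CEBPB was not. A gene counted as up- or down-regulated when its log2 fold change was above 1 or below -1 with an unadjusted p under 0.05. These thresholds, with edgeR, are those of the study, and the quasi-likelihood test of edgeR was chosen here. By this rule 9.95% of the 14828 genes tested were higher in H24. FPKM of the H24 and NC libraries did not overlap for 6 of the 8 factors, all higher in H24, against 12.8% of all genes. None of the 8 factors had an adjusted p under 0.05 by edgeR with Benjamini-Hochberg adjustment, where 0% of all genes passed in that direction. With DESeq2, which gave no p for SPI1, 5 of 6 up-regulated factors had one. With limma on log2(FPKM + 0.1) 6 factors were up-regulated and 0 passed the adjustment. The shares of all genes in these settings are not given, so these counts are not read as particular to the factors. Without H24 replicate 3, edgeR called 6 factors higher, against 6.49% of genes, and 4 of them (SPI1, IRF8, RUNX1 and RUNX3) passed the adjusted threshold, against 1.99% of genes. In RNA from whole tissue, more cells of a type and more RNA per cell cannot be told apart.

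The 8-week group lay between the others for most factors. Against NC, 5 of 8 factors were up-regulated in H8 (SPI1, IRF8, CEBPA, RUNX1 and RUNX3), where 5.11% of 14336 genes were higher and 2.27% lower. FPKM did not overlap for 4 factors (SPI1, IRF8, RUNX1 and BATF), all higher in H8, against 6.91% of genes. No factor passed the adjusted threshold of edgeR's test with Benjamini-Hochberg adjustment, which 0.014% of genes passed in the higher direction. With DESeq2 4 factors passed and with limma on log2(FPKM + 0.1) 0, settings for which the shares of all genes are likewise not given. The count fell from 5 to 3 (SPI1, IRF8 and RUNX1) without H8 replicate 1 and likewise without NC replicate 2. The shares of all genes without either library are not given, so this fall is not read as particular to the factors.

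Between the 2 high-fat groups, 5 factors were higher in H24 than in H8 (SPI1, IRF8, RUNX1, RUNX3 and BATF) and CEBPB was lower, where 7.22% of 14788 genes were higher and 3.05% lower. The same 5 factors did not overlap in the higher direction, against 15.5% of genes, and CEBPB did not overlap in the lower direction, against 6.31% of genes. No factor passed the adjusted threshold in edgeR's quasi-likelihood test with Benjamini-Hochberg adjustment, which 0.0135% of genes passed in the higher direction. With DESeq2, which gave no p for SPI1, 2 factors passed, and with limma on log2(FPKM + 0.1) 0. The shares of all genes in these settings are again not given. The call of BATF was kept whichever library was left out, while each of the other 5 was lost without at least 1 library. Only BATF was called without H24 replicate 3, against 3.75% of genes, only RUNX1 and BATF without H8 replicate 2, and only BATF and CEBPB without H8 replicate 3. The shares of all genes without H8 replicate 2 or 3 are not given, so those counts are not read as particular to the factors. The comparisons of H24 and of H8 with NC share the NC libraries, and those of H24 share the H24 libraries, so they are not independent of each other.

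**Figure D1:**
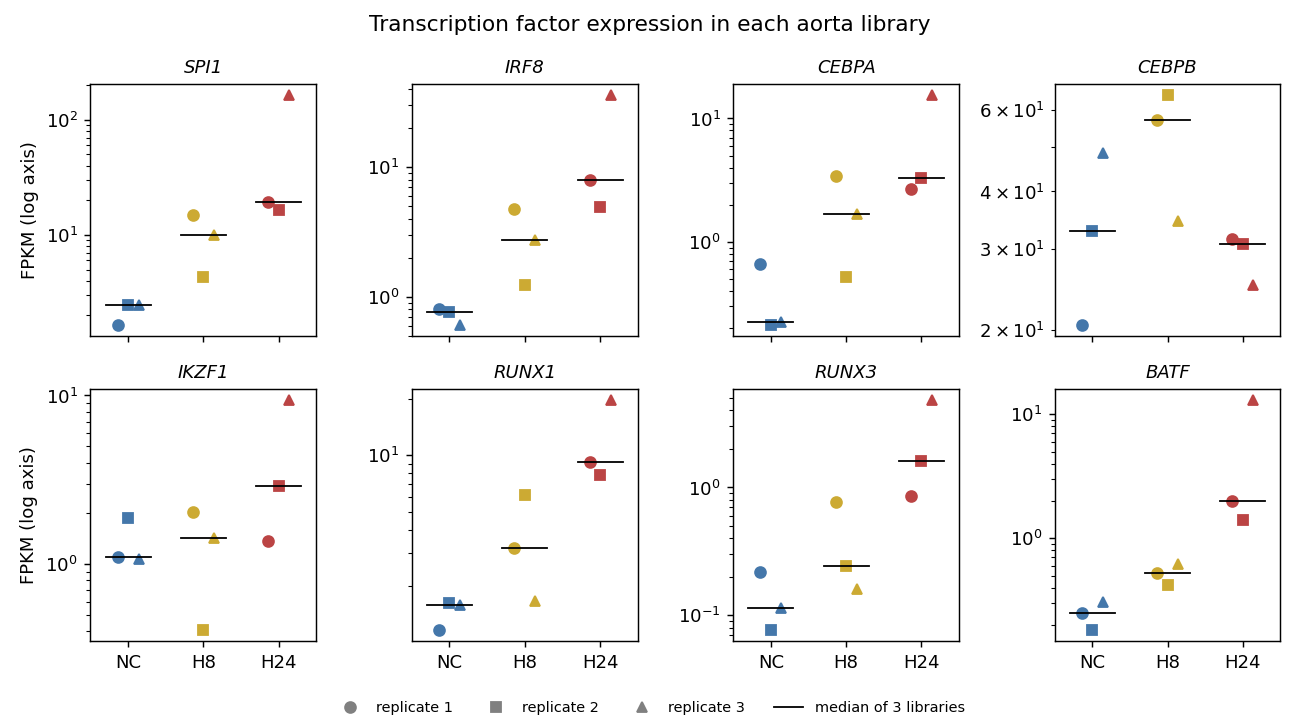
FPKM of each factor (log axis, each panel on its own range) in the 3 libraries of NC, H8 and H24, with a symbol for each replicate and a bar at the group median. For 7 factors H24 replicate 3 is the highest of the 9 libraries, and for CEBPB the highest library is H8 replicate 2.

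SPI1 encodes PU.1, the ETS-family factor on which macrophage and granulocyte development depends. It lies on chromosome 2 (Sscrofa11.1, 15227829 to 15245667, plus strand). Its level was 1.66, 2.45 and 2.44 FPKM in NC replicates 1, 2 and 3, then 14.9, 4.31 and 10.0 FPKM in H8, and 19.3, 16.6 and 164 FPKM in H24. The 3 groups did not overlap, H8 replicate 2 was the lowest of its group, and H24 replicate 3 was far above the other H24 libraries. SPI1 was up-regulated in H24 against NC with a log2 fold change of 4.91 (SE 1.01, adjusted p = 0.132, edgeR quasi-likelihood test with Benjamini-Hochberg adjustment). Without H24 replicate 3 the log2 fold change was smaller, 3.01, and its error much smaller (SE 0.31, adjusted p = 0.00547 by the same edgeR test). In H8 it was up-regulated by 2.26 against NC (SE 0.44, adjusted p = 0.170 by edgeR). H24 exceeded H8 by 2.59 (SE 0.95, adjusted p = 0.341 by edgeR) with all libraries and by 0.73 (SE 0.45, adjusted p = 0.566 by edgeR) without H24 replicate 3.

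IRF8, an interferon regulatory factor that binds DNA together with PU.1 and is needed for monocytes and dendritic cells, lies on chromosome 6 (3041417 to 3060685, minus strand). The NC libraries had 0.800, 0.771 and 0.611 FPKM, the H8 libraries 4.78, 1.24 and 2.75 FPKM, and the H24 libraries 8.03, 4.98 and 36.0 FPKM. The 3 groups did not overlap for IRF8 either, with the same lowest H8 and highest H24 library as for SPI1. Its log2 fold change was 4.46 in H24 against NC (SE 0.81, adjusted p = 0.132) and 2.11 in H8 against NC (SE 0.46, adjusted p = 0.187), both by edgeR with Benjamini-Hochberg adjustment. Without H24 replicate 3 the first of these was 3.12 (SE 0.34, adjusted p = 0.00653 by edgeR). H24 exceeded H8 by 2.31 (SE 0.81, adjusted p = 0.341 by edgeR), and by 0.997 (SE 0.51, adjusted p = 0.519) without that library. SPI1 and IRF8 had the most similar profiles of the 28 pairs of factors, with a root mean square difference of 0.314 in centred log2 CPM (counts scaled to library size) over the 9 libraries. The ratio of SPI1 to IRF8, in FPKM, was 2.08 to 3.99 in NC, 3.12 to 3.66 in H8 and 2.41 to 4.54 in H24, so the ranges overlapped.

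The 2 C/EBP factors behaved differently from each other. CEBPA, which drives granulocyte and monocyte commitment and also fat cell differentiation, was expressed at 0.667, 0.214 and 0.226 FPKM in NC, 3.39, 0.519 and 1.68 FPKM in H8, and 2.71, 3.28 and 15.5 FPKM in H24. H24 lay wholly above NC, whereas H8 overlapped NC through H8 replicate 2 and H24 through H8 replicate 1. The NC values rested on 17 to 50 counts per library. CEBPA was up-regulated in H24 against NC by 4.26 on the log2 scale (SE 0.92, adjusted p = 0.132, edgeR with Benjamini-Hochberg adjustment), and by 2.99 (SE 0.64, adjusted p = 0.0760) without H24 replicate 3. In H8 the log2 fold change was 2.43 (SE 0.78, adjusted p = 0.244 by edgeR), a call that was lost without H8 replicate 1 (1.67) and without NC replicate 2 (2.18) or NC replicate 3 (2.18). The H24 to H8 difference of 1.77 did not pass the test (SE 0.88, adjusted p = 0.403 by edgeR). Adipocyte markers, relevant because of that other role, summed to 95.3 to 167 FPKM in NC, 50.1 to 141 FPKM in H8 and 59.6 to 111 FPKM in H24. FABP4 made up most of this sum in every library. Of those tested 4 of 5 were lower in H8 than in NC, 5 of 6 were higher in H24 than in H8, and in H24 against NC 1 was higher and 1 lower of 6. Of all genes, 2.27% were lower in H8 than in NC and 7.22% higher in H24 than in H8. In H24 against NC 9.95% of all genes were higher and 1.52% lower. ADIPOQ had 4.44, 14.6 and 6.83 FPKM in NC and 0.0789 to 0.106 FPKM in H8. In H24 it had 7.24, 0.0705 and 0.416 FPKM, high in replicate 1 only. The part of adipocyte markers in the CEBPA values was not tested.

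CEBPB, an inducible C/EBP factor of inflammatory and acute-phase responses, had 20.6, 32.8 and 48.4 FPKM in NC, 57.1, 64.8 and 34.4 FPKM in H8, and 31.6, 30.7 and 25.1 FPKM in H24. The H24 libraries lay within the NC range, and all 3 H8 libraries were above all 3 H24 libraries. H24 replicate 3, the highest library for the other 7 factors, was the lowest H24 library for CEBPB. The log2 fold change was -0.25 in H24 against NC (SE 0.33, adjusted p = 0.793, edgeR with Benjamini-Hochberg adjustment), with a direction that turned to 0.081 without NC replicate 3. In H8 against NC it was 0.77 (SE 0.37, adjusted p = 0.385 by edgeR), and 1.02 without H8 replicate 3 or 1.10 without NC replicate 3, where it passed the rule. CEBPB was lower in H24 than in H8, with a log2 fold change of -1.04 (SE 0.32, adjusted p = 0.341 by edgeR), and this call was lost without H24 replicate 3 (-0.93) or H8 replicate 2 (-0.78). CEBPA lies on chromosome 6 (43084646 to 43085710, minus strand) and CEBPB on chromosome 17 (51722426 to 51724298, plus strand). The deposited CEBPA model spans 1065 bases against 2685 in RefSeq, and that of CEBPB 1873 against 1041, which bears on their levels relative to other genes but not on their fold changes.

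IKZF1 encodes Ikaros, a zinc finger protein of lymphoid development that is also present in myeloid cells, and lies on chromosome 9 (136372205 to 136463764, plus strand). It had 1.10, 1.89 and 1.07 FPKM in NC, 2.04, 0.408 and 1.43 FPKM in H8, and 1.37, 2.92 and 9.37 FPKM in H24. All 3 groups overlapped, and H8 replicate 2 was the lowest of the 9 libraries. The call in H24 against NC was the weakest of the 7, with a log2 fold change of 1.73 (SE 0.71, adjusted p = 0.345, edgeR with Benjamini-Hochberg adjustment). It was lost without H24 replicate 3 (0.64, SE 0.46, adjusted p = 0.729 by edgeR) and also without NC replicate 1 (1.59), NC replicate 2 (2.08) or NC replicate 3 (1.56). In H8 the log2 fold change was 0.028 (SE 0.54, adjusted p = 0.989 by edgeR), and the H24 to H8 difference was 1.66 (SE 0.80, adjusted p = 0.392 by edgeR).

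RUNX1, a runt-domain factor required for the emergence of blood stem cells, lies on chromosome 13 (198371837 to 198635596, minus strand). The NC libraries had 1.17, 1.62 and 1.58 FPKM, the H8 libraries 3.21, 6.11 and 1.66 FPKM, and the H24 libraries 9.16, 7.82 and 19.7 FPKM. The 3 groups did not overlap. Unlike the other 6 up-regulated factors, RUNX1 was highest within H8 in replicate 2, the library with the lowest summed pan-leukocyte level of that group (26.6 FPKM, against 122 and 65.0 FPKM). RUNX1 had the smallest p of the 8 factors in H24 against NC, ranking 17 of all genes, with a log2 fold change of 3.05 (SE 0.42, adjusted p = 0.129, edgeR with Benjamini-Hochberg adjustment) and 2.51 (SE 0.25, adjusted p = 0.00539) without H24 replicate 3. In H8 against NC it was 1.51 (SE 0.49, adjusted p = 0.248 by edgeR), a call lost without H8 replicate 2 (0.81) or NC replicate 1 (1.36). H24 exceeded H8 by 1.498 (SE 0.58, adjusted p = 0.342 by edgeR), and by 0.996 (SE 0.54, adjusted p = 0.529) without H24 replicate 3, where the call was lost, as it was without H8 replicate 1 (1.37) or H8 replicate 3 (1.12).

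RUNX3, the paralog best known from cytotoxic T cells, natural killer cells and dendritic cells, was the lowest of the 8 by median in each group. It had 0.217, 0.0771 and 0.115 FPKM in NC, on 38 to 92 counts, then 0.773, 0.243 and 0.161 FPKM in H8, and 0.857, 1.61 and 4.81 FPKM in H24. H24 lay above both other groups, which overlapped. The log2 fold change was 4.14 in H24 against NC (SE 0.78, adjusted p = 0.132) and 3.17 (SE 0.55, adjusted p = 0.0352) without H24 replicate 3, by edgeR with Benjamini-Hochberg adjustment. In H8 it was 1.65 (SE 0.70, adjusted p = 0.333 by edgeR), close to the p threshold and lost without H8 replicate 1 (0.74) or without NC replicate 2 (1.38) or NC replicate 3 (1.54). H24 exceeded H8 by 2.44 (SE 0.83, adjusted p = 0.341 by edgeR), and by 1.51 (SE 0.70, adjusted p = 0.488) without H24 replicate 3. The 9 T cell markers summed to 5.34, 18.1 and 23.9 FPKM in H24 replicates 1, 2 and 3, against 0.302 to 0.451 FPKM in NC, and in H24 replicate 2 CD3E alone had 15.8 FPKM. The part of T cell markers in the RUNX3 values was not tested. RUNX3 lies on chromosome 6 (82528975 to 82560557, minus strand), and its deposited span of 31583 bases is shorter than the 63842 bases of RefSeq.

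BATF, a basic leucine zipper protein that pairs with JUN proteins and cooperates with IRF factors in T cells and dendritic cells, lies on chromosome 7 (98670211 to 98692230, plus strand). Its level was 0.248, 0.183 and 0.307 FPKM in NC, on 14 to 20 counts, then 0.527, 0.421 and 0.617 FPKM in H8, and 2.01, 1.40 and 13.0 FPKM in H24. The 3 groups did not overlap, and in H8 the values were close together. A gene on the opposite strand that overlaps BATF was listed at 0 in all 9 libraries. BATF was up-regulated in H24 against NC by 4.43 on the log2 scale (SE 0.997, adjusted p = 0.136, edgeR with Benjamini-Hochberg adjustment), and by 2.75 (SE 0.61, adjusted p = 0.0836) without H24 replicate 3. The difference of 1.22 in H8 against NC missed the p threshold (SE 0.55, adjusted p = 0.360 by edgeR). H24 exceeded H8 by 3.16 (SE 0.91, adjusted p = 0.336 by edgeR), the largest of the 8 differences between the high-fat groups, and by 1.52 (SE 0.58, adjusted p = 0.431) without H24 replicate 3.

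**Figure D2:**
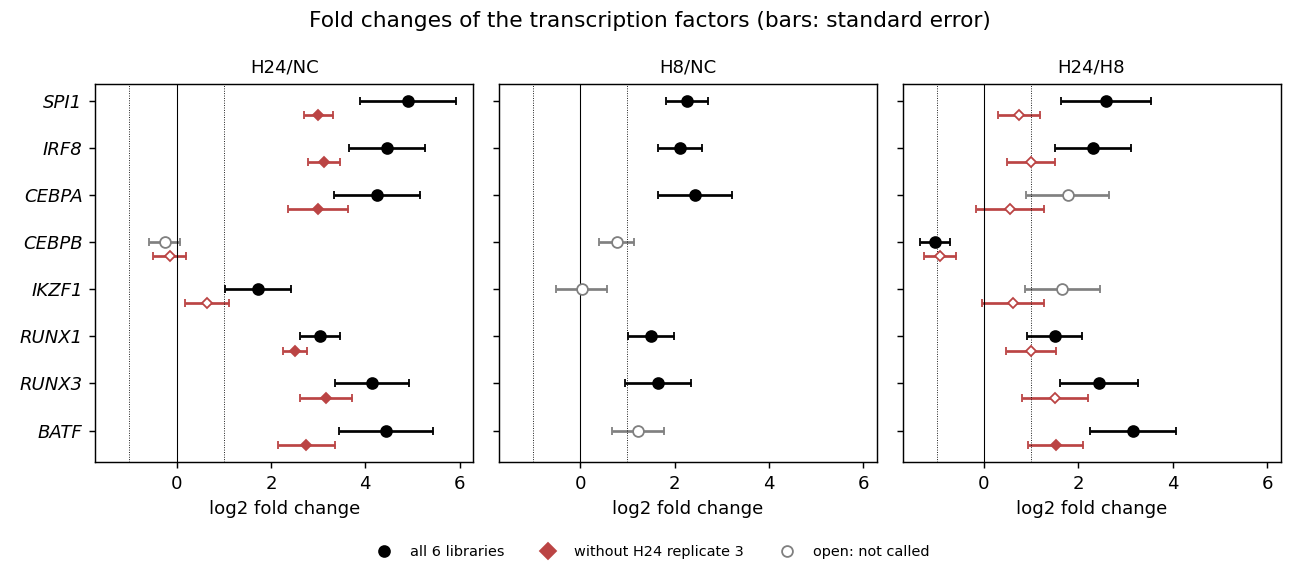
Log2 fold change with its standard error for each factor in H24/NC, H8/NC and H24/H8 (edgeR), with circles for all 6 libraries and diamonds for the fit without H24 replicate 3; filled symbols passed the study's thresholds and dotted lines stand at -1 and 1. Leaving out that library lowers the H24/NC estimate of SPI1 from 4.91 to 3.01 and leaves BATF as the single filled diamond in H24/H8.

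The order of the factors by median FPKM, a scale that corrects for length, was CEBPB, SPI1, RUNX1, IKZF1, IRF8, BATF, CEBPA and RUNX3 in NC. In H8 and in H24 it was CEBPB, SPI1, RUNX1, IRF8, CEBPA, IKZF1, BATF and RUNX3, so that IRF8 and CEBPA stood above IKZF1 in both high-fat groups and below it in NC. Not every neighbour was separated in every library. In NC, RUNX1 exceeded IKZF1 in 2 of 3 libraries and BATF exceeded CEBPA in 1. In H8, SPI1 exceeded RUNX1 in 2 of 3 libraries, RUNX1 exceeded IRF8 in 1, IKZF1 exceeded BATF in 2 and BATF exceeded RUNX3 in 2. In H24, CEBPB exceeded SPI1 in 2 of 3 libraries, RUNX1 exceeded IRF8 in 2, IKZF1 exceeded BATF in 1 and BATF exceeded RUNX3 in 2. All other neighbours kept their order in the 3 libraries of the group.

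CEBPB made up most of the summed FPKM of the 8 factors in NC, with 77.8%, 82.0% and 88.4% in replicates 1, 2 and 3. Its share was 65.9%, 83.0% and 65.3% in H8 and 42.1%, 44.3% and 8.74% in H24. The H24 shares lay below those of both other groups, while H8 replicate 2 lay within the NC range. SPI1 took 4.46% to 6.29% of the sum in NC, 17.2%, 5.52% and 19.0% in H8, and 25.8%, 23.9% and 57.0% in H24. The ratio of SPI1 to IKZF1, in FPKM, was 1.296 to 2.29 in NC, 7.03 to 10.6 in H8 and 5.68 to 17.5 in H24, and both high-fat groups lay above NC.

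**Figure D3:**
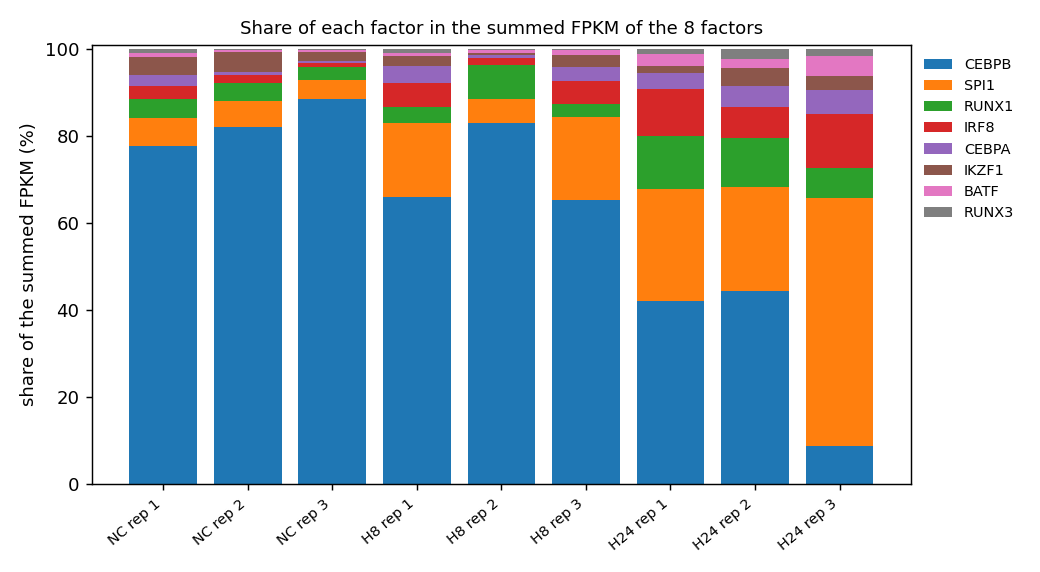
Share of each factor in the summed FPKM of the 8 factors (percent) in each of the 9 libraries. CEBPB falls from 77.8% to 88.4% in NC to 42.1%, 44.3% and 8.74% in H24, and SPI1 reaches 57.0% in H24 replicate 3.

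Because leukocyte genes as a whole differed between the groups, each factor was also set against 5 genes present in nearly all leukocytes (PTPRC, CD53, LAPTM5, CORO1A and CD37). All 5 were up-regulated in H24 against NC, with log2 fold changes of 3.08 to 5.32, and in H8 against NC, with 1.297 to 2.33. Their summed level was 23.6 to 33.6 FPKM in NC, 26.6 to 122 FPKM in H8 and 135 to 475 FPKM in H24. LAPTM5 made up most of this sum in every library. In H8 replicate 2, LAPTM5 (23.5 FPKM) and CD37 (0.535 FPKM) lay within the NC range. PTPRC (0.480 FPKM), CD53 (1.43 FPKM) and CORO1A (0.674 FPKM) lay above every NC library there. The relative level was log2(FPKM + 0.1) of the factor minus the mean of the same value over the 5 genes.

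On this relative scale, most of the factors changed little compared with their fold changes. SPI1 stood at 0.38, 1.24 and 1.18 in NC, 1.58, 1.47 and 1.77 in H8, and 1.10, 1.74 and 2.004 in H24, so that H8 lay above NC and H24 overlapped both. IRF8 stood at -0.59, -0.31 and -0.65 in NC, -0.037, -0.25 and -0.064 in H8, and -0.16, 0.022 and -0.18 in H24, so that both high-fat groups lay above NC. On this scale 1 of the 8 factors lay wholly above NC in H24, against 0.465% of genes, and 2 in H8, against 0.286% of genes. The mean difference for IRF8 was 0.41 in H24 and 0.40 in H8, each with p = 0.1 in a two-sided exact permutation test, the smallest p that 3 against 3 libraries allow. After Benjamini-Hochberg adjustment over the 8 factors and 3 comparisons, the permutation test gave an adjusted p of 0.343 for each. Against PTPRC alone the IRF8 differences were 0.016 and 0.065, so they depended on the other 4 reference genes.

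IKZF1 and CEBPB went the other way. IKZF1 stood at -0.17, 0.88 and 0.059 in NC, -1.23, -1.65 and -0.96 in H8, and -2.63, -0.73 and -2.11 in H24, below NC in both high-fat groups. CEBPB stood at 3.93, 4.93 and 5.44 in NC, 3.52, 5.35 and 3.54 in H8, and 1.81, 2.63 and -0.70 in H24, where it lay below both other groups. With rising leukocyte genes a gene of other cells falls on this scale, and 92.6% of all genes lay below NC in H24, 66.1% below NC in H8 and 39.6% below H8 in H24, so the positions below NC were shared with most genes tested. In H24 against H8, 0.196% of genes and none of the factors lay wholly above. Counting both directions, 3 factors did not overlap in H8 against NC, but 7 without H8 replicate 2, and 1 did not overlap in H24 against H8, but 3 without H24 replicate 2. Leaving out a library can only keep or raise such a count. The share of all genes was not computed for the smaller sets, so these rises are not read as results about the factors. The relative levels of CEBPA, RUNX1, RUNX3 and BATF overlapped in all 3 comparisons, with mean differences of -0.50 to 0.58 and exact permutation p of 0.2 to 1. Their adjusted p in that test was at least 0.6.

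**Figure D4:**
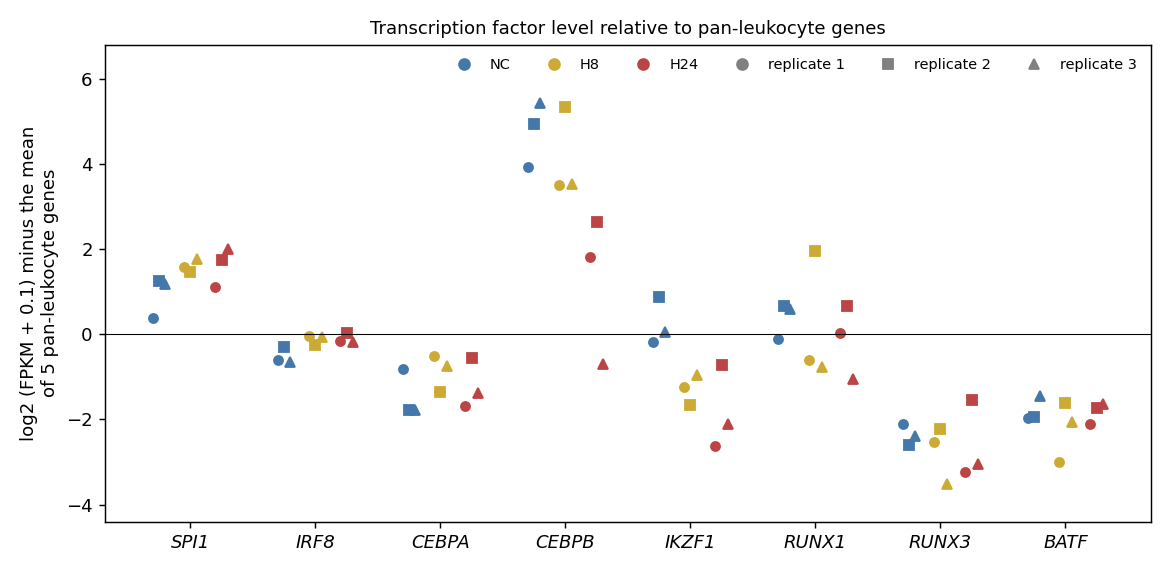
Level of each factor relative to the mean of 5 pan-leukocyte genes (log2 units) in each library, coloured by group and with a symbol for each replicate. IRF8 stays within -0.65 to 0.022 over all libraries, while CEBPB drops to -0.70 in H24 replicate 3 and RUNX1 reaches 1.96 in H8 replicate 2.

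Macrophage markers were higher in H24 against NC, as were all factors but CEBPB. All 12 were up-regulated in H24 against NC, 6 of 10 tested in H8 against NC and 11 of 12 in H24 against H8. The shares of all genes called higher in these comparisons were 9.95%, 5.11% and 7.22%. FPKM of H24 and H8 did not overlap for 4 of the 12, against 15.5% of genes. Counts without H24 replicate 3 are not given for the marker lists. Their summed level was 25.9 to 35.01 FPKM in NC, 191, 33.5 and 91.8 FPKM in H8, and 313, 184 and 2005 FPKM in H24, and of the defining markers MARCO alone was at 0 in all NC libraries. The H8 libraries thus ranked as they did for SPI1, IRF8 and CEBPA, and H24 replicate 3 was highest. H24 replicate 2 (184 FPKM) lay below H8 replicate 1 (191 FPKM). In H24 against NC, markers were up-regulated for 6 of 8 tested of T cells, 3 of 4 of natural killer cells, 4 of 6 of dendritic cells, 2 of 3 of mast cells, 3 of 6 of neutrophils and 0 of 2 of B cells. The part of leukocyte content in the levels of the factors was not tested.

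Of 19 paralogs and DNA-binding partners of the factors 12 were tested in H24 against NC, and 5 were up-regulated and 0 down-regulated, with a median log2 fold change of 0.57 against 0.0080 over all genes. Of all genes tested 9.95% were higher and 1.52% lower. The 5 were IRF5, an inflammatory macrophage factor (3.92, SE 0.63), RUNX2, the bone-forming RUNX paralog (3.92, SE 0.88), the Ikaros relative IKZF3 (3.51, SE 0.75), BATF3 (2.89, SE 0.61) and BATF2 (2.31, SE 0.64), with adjusted p of 0.132 to 0.193 by edgeR with Benjamini-Hochberg adjustment. All 3 RUNX genes and all 3 BATF genes were thus called higher in H24. RUNX2 had 0.353, 0.0402 and 0.132 FPKM in NC, 0.238, 0.102 and 0.262 FPKM in H8, and 1.41, 1.97 and 4.73 FPKM in H24, with H24 above both other groups. The abundant partners JUN (-0.20) and CEBPD (-0.84) were not called in H24 against NC, by the same edgeR test. Without H24 replicate 3 the count remained 5.

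JUN, the AP-1 partner of BATF, was the 1 gene of this list called in H8 against NC, where 11 were tested and the median log2 fold change was 0.26. Of all genes 5.11% were higher there and 2.27% lower. JUN had 375, 456 and 259 FPKM in NC, 1356, 578 and 879 FPKM in H8, and 350, 281 and 337 FPKM in H24. H8 lay above both other groups, with log2 fold changes of 1.48 (SE 0.34, adjusted p = 0.187) in H8 against NC and -1.71 (SE 0.37, adjusted p = 0.336) in H24 against H8, both by edgeR with Benjamini-Hochberg adjustment. CEBPB was the factor with the same order of group medians. In H24 against H8, 13 of the list were tested, 5 were higher and 2 lower, with RUNX2 (3.57, SE 0.65) at the smallest p. There 7.22% of all genes were higher and 3.05% lower. Without H24 replicate 3, 3 of the list were higher, against 3.75% of genes, and 1 lower.

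Among 35 other hematopoietic transcription factors, 28 were tested in H24 against NC. Of the 28, 9 were up-regulated, against 9.95% of all genes tested, and the median log2 fold change of the 28 was 0.84. The smallest p belonged to PRDM1, which drives terminal differentiation of B and T cells (4.90, SE 0.89), and MAF (2.52, SE 0.61), GFI1 (5.74, SE 1.51) and the T cell factor TCF7 (1.86, SE 0.50) were also called, with adjusted p of 0.132 to 0.179 by edgeR with Benjamini-Hochberg adjustment. GFI1 was at 0 in 2 of 3 NC libraries, so its fitted fold change depends on the prior count. The count was 5 without NC replicate 3 and 6 without H24 replicate 3. Not called were the 2 most abundant, NR4A1 (-1.36, SE 0.87) and ID2 (0.50, SE 0.38).

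In H8 against NC, 24 of these factors were tested, 3 were higher and 2 lower, against 5.11% and 2.27% of all genes. The higher ones included PRDM1 (2.15, SE 0.48, adjusted p = 0.187) and KLF4 (1.54, SE 0.44, adjusted p = 0.219), by edgeR with Benjamini-Hochberg adjustment. PRDM1 had 0.0639, 0.0935 and 0.0472 FPKM in NC, 0.248, 0.338 and 0.238 FPKM in H8, and 0.918, 0.685 and 4.68 FPKM in H24, with no overlap between the 3 groups. The lower ones were EOMES (-4.28, SE 1.43), which reached 0.751 FPKM in NC replicate 2 and was at most 0.108 FPKM in the other NC libraries, and BCL6 (-1.23, SE 0.48). The count was 8 without H8 replicate 1, with 3 higher and 5 lower. In H24 against H8, where 7.22% of all genes were higher and 3.05% lower, 27 of the list were tested. Of these 7 were higher, TCF7 and GFI1 first by p, and KLF4 was lower (-1.47, SE 0.47). That total of 8 fell to 4 without H8 replicate 2 and to 5 without H24 replicate 3.

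Genes known as targets of PU.1 and C/EBP proteins were higher in the high-fat groups as well. Of 26 listed, 23 were tested in H24 against NC, with a median log2 fold change of 4.48, beside 4.2 for the 8 factors and 0.0080 for all genes tested. Against 9.95% of all genes tested, 19 of the 23 were up-regulated. They included CSF3R, the granulocyte colony-stimulating factor receptor (6.23, SE 1.03), the integrin ITGAM (5.43, SE 1.03), the adaptor TYROBP (4.97, SE 0.95), VAV1 (5.19, SE 0.99) and the scavenger receptor MSR1 (5.50, SE 1.08), each with an adjusted p of 0.132 by edgeR with Benjamini-Hochberg adjustment. The cytokine IL6 (0.47, SE 0.59) and PTGS2 (0.88, SE 0.58), both inducible, were not called. Without H24 replicate 3, 17 targets were called and 14 passed the adjusted threshold. Several targets also serve as macrophage or neutrophil markers, so this list and the marker lists are not separate evidence.

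In H8 against NC 12 of 21 targets tested were up-regulated, against 5.11% of all genes. The median log2 fold change was 1.64 for the targets and 1.58 for the factors. CSF3R had 0.301, 0.232 and 0.233 FPKM in NC, 4.32, 2.21 and 3.65 FPKM in H8, and 7.28, 4.55 and 46.8 FPKM in H24, with no overlap between the 3 groups. Its log2 fold change in H8 of 3.84 (SE 0.33, adjusted p = 0.0207, edgeR with Benjamini-Hochberg adjustment) was the only one among the factors and the 3 related lists that passed the adjusted threshold with all 6 libraries. VAV1 (2.60, SE 0.58), ITGB2 (1.86, SE 0.47), CD68 (2.32, SE 0.61) and MSR1 (2.68, SE 0.72) came next by p, while CYBA (0.74, SE 0.26) and CSF1R (1.04, SE 0.46) were not called. Of the 2 neutrophil markers tested in H8 against NC, CSF3R was called higher and ELANE lower (-2.21, SE 0.60). The other neutrophil markers were too low to be tested, with S100A8 at 0 FPKM in every H8 library. In H24 against H8, 19 of 23 targets were higher, against 7.22% of all genes, with CD14 (2.82, SE 0.73) first by p. This count was 4 without H24 replicate 3, 4 without H8 replicate 2 and 4 without H8 replicate 3.

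**Figure D5:**
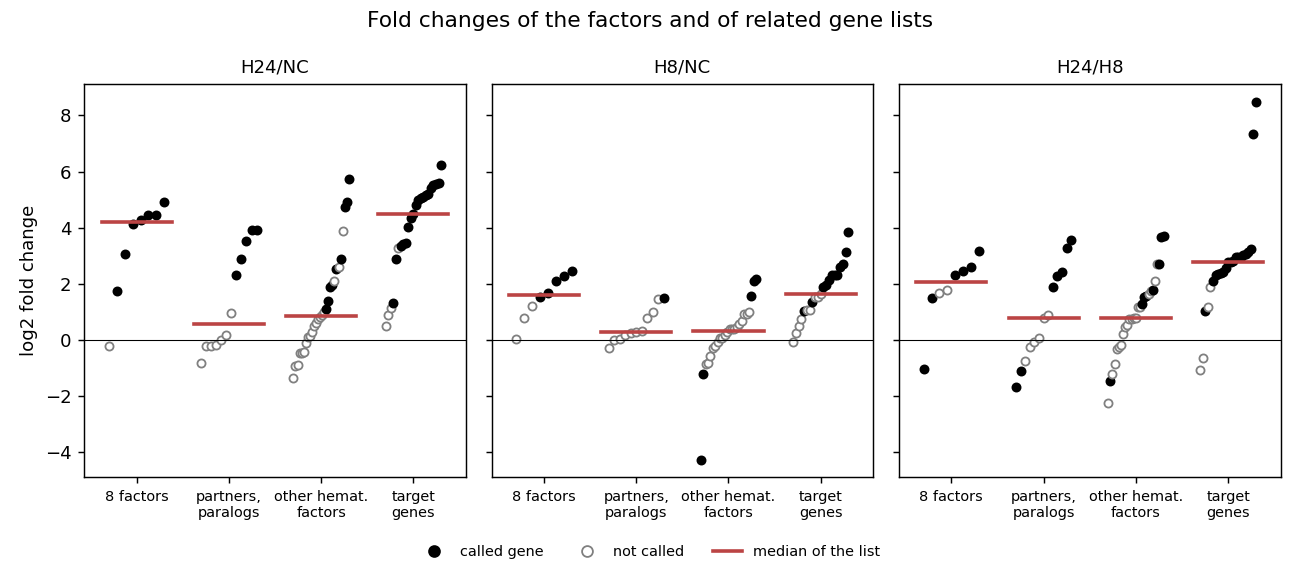
Log2 fold change (edgeR) of each tested gene among the 8 factors, their partners and paralogs, other hematopoietic factors and PU.1 or C/EBP target genes, in H24/NC, H8/NC and H24/H8; filled points passed the study's thresholds and red bars mark medians. In H24/NC the medians of the factors and targets are 4.2 and 4.48, and those of the partners and of the other factors are 0.57 and 0.84.

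For each factor the 2 genes with the nearest profile were sought among 10328 named genes with a mean of at least 1 FPKM, by the root mean square difference of centred log2 CPM (counts scaled to library size) over the 9 libraries. This distance is a description over libraries that share groups. SPI1 was nearest to SLC45A3 (0.218) and DOK3 (0.269), and IRF8 to RPS6KA1 (0.115) and ARHGAP45 (0.171). RPS6KA1, a ribosomal S6 kinase, had 1.52, 1.31 and 1.07 FPKM in NC, 6.83, 1.70 and 3.93 FPKM in H8, and 12.02, 7.28 and 46.3 FPKM in H24, in the same order as IRF8 in every library. CEBPA was nearest to FAM78A (0.176) and the tetraspanin CD37 (0.269), BATF to THEMIS2 (0.241) and TSPAN10 (0.273), and RUNX3 to CSF2RB (0.320), a subunit shared by cytokine receptors, and PIK3R5 (0.336).

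The neighbours of the other 3 factors were as follows. RUNX1 was nearest to OLR1 (0.364), a receptor for oxidised low-density lipoprotein, and VCAM1 (0.421), an adhesion molecule of activated endothelium. OLR1 had 2.88, 2.40 and 2.05 FPKM in NC, 7.09, 9.48 and 4.15 FPKM in H8, and 11.5, 15.6 and 27.96 FPKM in H24, with H8 replicate 2 highest in its group, as for RUNX1. CEBPB was nearest to PTBP1 (0.239), a splicing regulator, and the circadian repressor CRY1 (0.243). IKZF1 was nearest to HPS4 (0.373) and TRAF3IP3 (0.378).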

How the data were processed

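Poly(A) RNA of 9 aorta samples, 3 per group, was sequenced with paired-end reads. Alignment by the authors used HISAT 2.0 and the pig build Sscrofa11.1, and StringTie 1.3.0 built the transcripts. Its FPKM values were deposited, together with a column that, per the file headers, holds a count per gene and that was treated as an estimated count. How the counts were derived is not given in the sources used here. The processing notes also list Bowtie 0.12.2 and the mouse build mm8, with no role.

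Counts were tested with edgeR 4.0.16 (R 4.3.3; TMM, quasi-likelihood, 2 groups at a time, genes averaging 0.1 FPKM or more across both groups) with Benjamini-Hochberg adjustment over all genes tested. Relative levels used a pseudocount of 0.1 on FPKM and a two-sided exact permutation test. Gene names were taken from the table and, for 907 genes, from an ID table, and 10 listed names were not found. Alternatives used DESeq2 1.42.0, limma 3.58.1, other filters, the replicate number as a block, and each library left out. The numbers did not pair the libraries: deviations of same-numbered libraries correlated at -0.0921 to 0.101, and the least different pair of libraries still had a chi-square of 182 per degree of freedom. The script was tested on simulated data.

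The factors and lists were chosen with earlier results of these data known. Named beside the 8 factors were, from the 3 related lists, at most 5 called genes per comparison by smallest p and at most 2 uncalled genes of largest mean FPKM, the 2 nearest profiles per factor, the 5 pan-leukocyte genes, and markers beside a result they moved with. MARCO, CD3E, ELANE, S100A8, FABP4 and ADIPOQ were named after their values were seen. A result that the naming rule would have given is not reported here.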

Additional observations from a re-analysis of the deposited data

Results flagged for a closer look

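Of the 8 factors, 6 had an H24 effect that differed from the H8 effect by the test of the difference itself, the comparison of H24 with H8 by edgeR's quasi-likelihood test at an unadjusted p under 0.05. The log2 differences were 2.59 for SPI1, 2.31 for IRF8, 1.498 for RUNX1, 2.44 for RUNX3, 3.16 for BATF and -1.04 for CEBPB. None passed Benjamini-Hochberg adjustment over all genes (adjusted p of 0.336 to 0.342 by edgeR). By the study's thresholds, 7.22% of the 14788 genes tested were higher in H24 than in H8 and 3.05% lower. Without H24 replicate 3 only BATF was still called, against 3.75% of genes called higher. CEBPB was the single one with opposite directions, as every H8 library lay above the NC mean of 33.9 FPKM and every H24 library below it. The margin was small, as H8 replicate 3 had 34.4 FPKM, and NC itself ran from 20.6 to 48.4 FPKM. The share of all genes meeting this rule was not computed. Neither effect of CEBPB against NC was called, and the log2 fold change in H24 against NC turned from -0.25 to 0.081 without NC replicate 3, the highest NC library. Dixon's test for single outlying values was not run, as it was not applied to groups of 3.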

How the results depend on the processing

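The limits are 3 libraries per group, H24 replicate 3, which stands apart, and low NC counts for CEBPA, RUNX3 and BATF. Of 356 alternative fold changes of single factors, 299 kept direction and side of the threshold, 42 lost it, 7 gained it and 8 turned. Those that turned, none of them called, were CEBPB in H24/NC without NC replicate 3 (range -0.51 to 0.081 with single libraries left out) and IKZF1 in H8/NC with limma on log2(FPKM + 0.1) (-0.25) or log2(FPKM + 1) (-0.091), with the replicate block (-0.10), and with single libraries left out (-0.47 to 0.42). DESeq2 gave no p for SPI1 in H24/NC and H24/H8, and the filter at 1 FPKM removed RUNX3 and BATF in H8/NC.

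Counts moved by over 1.5 times as follows. The shares of all genes called in these settings are not given, so the counts are not read as particular to the factors or lists. With limma on log2(FPKM + 1), 2 factors were called in H8/NC. The same setting called 3 partners in H24/NC and 4 in H24/H8, other hematopoietic factors 4 in H24/NC, 3 in H8/NC and 3 in H24/H8, and targets 6 in H8/NC and 11 in H24/H8. A filter at 1 FPKM called 3 partners in H24/NC, 3 other factors in H8/NC and 4 partners in H24/H8. DESeq2 called 2 partners in H8/NC and 13 other factors in H24/H8, and no filter called 2 partners in H8/NC. The replicate block, although the numbers did not pair the libraries, called 2 of the 8 factors in H24/H8 and 3 other factors in H8/NC. Relative levels did not overlap for 6 factors in H24/NC with FPKM + 1 and for 0 in H24/H8 against PTPRC alone. With FPKM + 0.1 and all reference genes, IRF8, CEBPB and IKZF1 did not overlap in H24/NC, and CEBPB did not in H24/H8. In H24/NC 0.465% of all genes then lay above and 92.6% below. That share was not computed in the other settings, so these counts are not read as results about the factors.

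With single libraries left out, calls among the 8 factors ranged from 3 to 6 in H8/NC and 1 to 7 in H24/H8. Shares of all genes called are not given beside the ranges here, so none is read as particular to the factors or lists. Partners ranged from 1 to 2 in H8/NC and 4 to 7 in H24/H8. Other factors ranged from 5 to 11 in H24/NC, 4 to 8 in H8/NC and 4 to 11 in H24/H8, and targets from 4 to 19 in H24/H8. Factors with relative levels that did not overlap ranged from 3 to 7 in H8/NC and 1 to 3 in H24/H8, a count that leaving out a library can only keep or raise. In each case where the count moved, the cause was not tested.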
